A study of Mus musculus with 8 samples.

Results

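The 8 genes described here encode the coat and the assembly machinery of lipid droplets, the organelles in which fat cells keep triglyceride. They are Plin2, Plin3, Plin4 and Plin5 of the perilipin family, Cidea and Cidec of the CIDE family, Fitm2, and Bscl2, which encodes seipin. They were taken by name from the array annotation: every probe set that names exactly 1 gene symbol, with that symbol among the 8. This gave 10 probe sets of 34945 that name a single gene, and 8 genes of 18193 measured. Plin5 and Bscl2 have 2 probe sets each, and a gene is represented by the probe set with the highest mean over all arrays. The samples were inguinal white adipose tissue, the fat pad under the skin of the groin, from 12-week-old male mice on a C57BL/6 background fed standard chow. There were 4 mice deficient in the lysophosphatidic acid receptor Lpar4 (Lpar4 -/Y, called KO) and 4 wild-type littermates (WT), with 1 array each. Each value is a log2 signal as deposited, each difference is KO minus WT, and errors are SDs of 4 arrays unless an SE is named.

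Lipid droplets form at the endoplasmic reticulum, where seipin marks the sites of budding and FITM2 helps the new droplet leave the membrane. Perilipins then cover the droplet surface and govern the access of lipases. CIDE proteins gather at contacts between droplets and let the smaller droplet empty into the larger, which in white fat ends in the single large droplet of the mature adipocyte. In people, loss of seipin causes a congenital lipodystrophy with almost no fat tissue.

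The arrays had nearly equal medians, from 6.73 to 6.74. The tissue label fits its adipocyte markers, since the mean of 11 was 11.99 to 12.12 in KO arrays and 11.89 to 12.01 in WT arrays. The mean of 15 skeletal muscle markers was 6.46 to 9.48 in KO arrays and 6.52 to 9.07 in WT arrays. Ucp1, the uncoupling protein of brown and beige fat, was 6.17 in both genotypes, but it hardly moved over the arrays and says little about the label. The targeted gene Lpar4 was lower in KO at probe set 1452424_at only (5.81 in KO, 6.93 in WT), and its other 2 probe sets were higher in KO. Which of them lies in the deleted part is not known here. Of the 18193 genes 733 passed the test, limma with a Benjamini-Hochberg adjusted p under 0.05 over all genes. That is 4.03% of genes, with 2.39% higher and 1.64% lower in KO. Of the 8 members 1, Bscl2, passed. All 8 belong to the 5173 genes called varying, whose SD over the 8 arrays was at least 0.01, and the others are called near constant. Of the 733 genes that passed, 590 were varying and the rest were near constant. Ucp1 and 3 of the 11 adipocyte markers are among the near-constant genes. Most probe sets on these arrays hardly moved at all, so the test was also run over the varying genes alone, where 27.1% passed. Replicate numbers 1 to 4 occur in both genotypes, and same-numbered arrays deviated together across genes, so the number was also fitted as a replicate block.

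**Figure D1:**
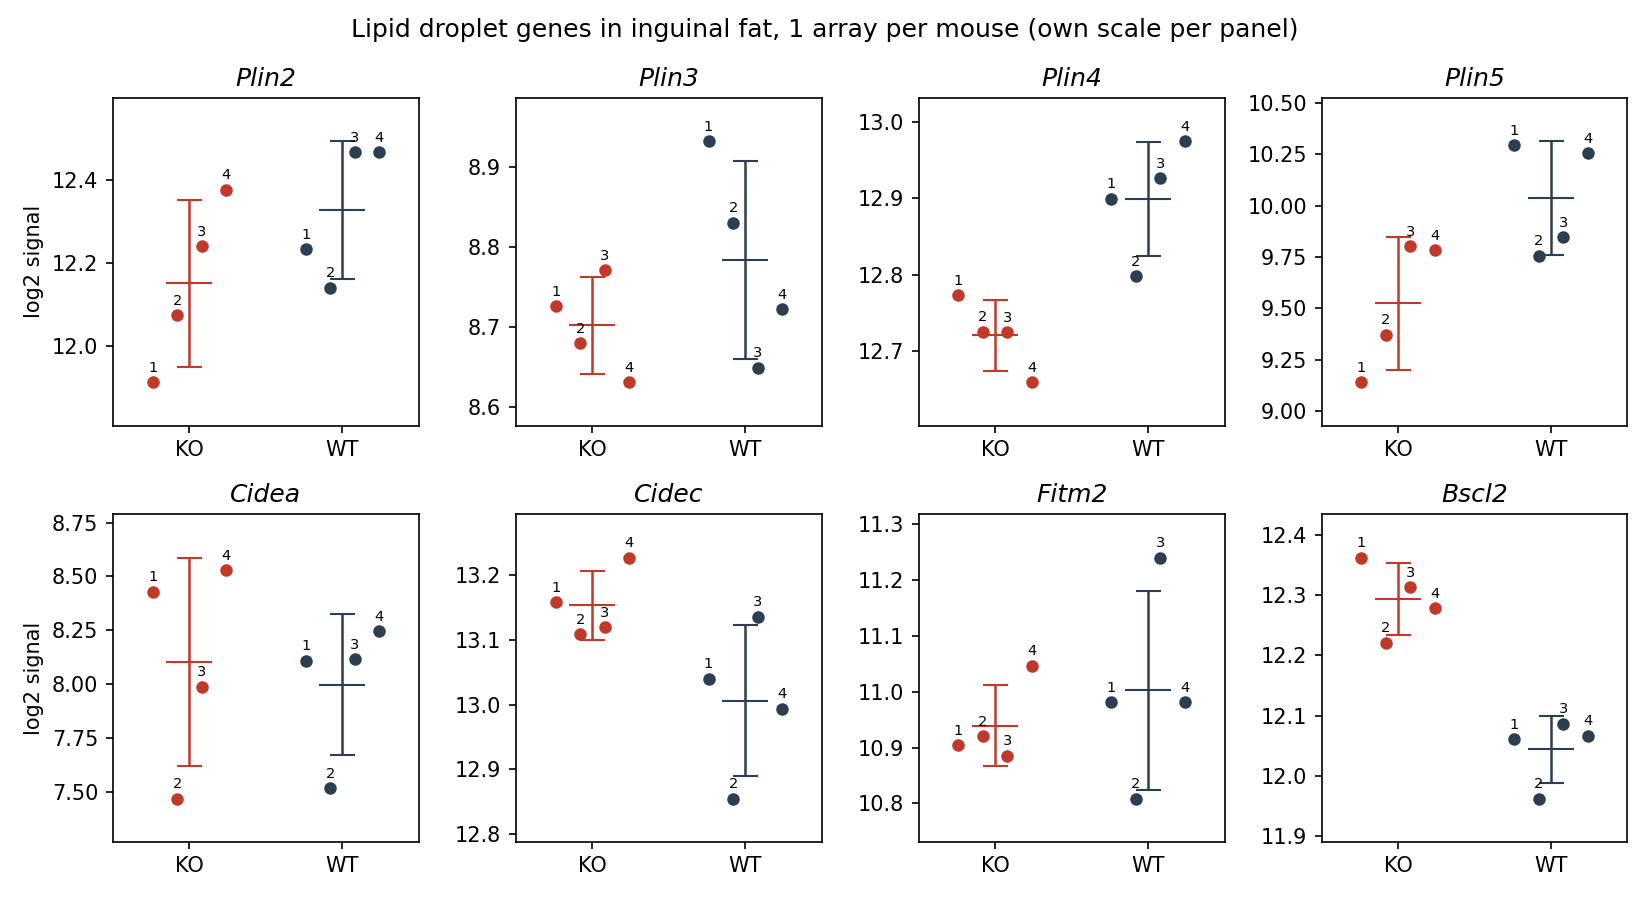
Log2 signal of the 8 genes in each array, with KO at the left and WT at the right of every panel, points numbered by replicate, and bars for the mean and SD of 4 arrays. The genotypes separate in Bscl2, with KO above WT, and in Plin4, with KO below WT, and overlap in the other 6 genes.

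Bscl2 rose in KO. Its signal was 12.36, 12.22, 12.31 and 12.28 in KO arrays 1 to 4, against 12.06, 11.96, 12.09 and 12.07 in WT arrays 1 to 4. Every KO array lay above every WT array, and the SD within each genotype was small beside the difference of the means. The means were 12.29 ± 0.06 in KO and 12.04 ± 0.06 in WT, a difference of 0.25 ± 0.04 (SE, n = 4 each), or 1.19-fold (limma adjusted p = 0.0337, exact permutation p = 0.0286, the smallest that 4 against 4 arrays can give). The 95% interval of the difference ran from 0.15 to 0.35. Non-overlap of the genotypes was common among varying genes, at 33.2%.

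The second Bscl2 probe set gave the same direction. Probe set 1420632_a_at read 10.07, 10.14, 10.29 and 10.19 in KO arrays 1 to 4, against 9.91, 9.77, 9.88 and 9.88 in WT arrays 1 to 4. The genotypes were apart here too, with a difference of 0.31 ± 0.05 (SE, n = 4 each; limma adjusted p = 0.0428 over all single-gene probe sets). On the same footing the brighter probe set, 1437345_a_at, had an adjusted p of 0.0387. The suffix of both probe sets marks probes that recognise more than 1 transcript of the same gene, so the values do not tell the Bscl2 transcripts apart.

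The size of the Bscl2 difference held in every number pair, while its call depended on the fit. Same-numbered KO and WT arrays differed by 0.30, 0.26, 0.23 and 0.21 for numbers 1 to 4, and 27.8% of varying genes were likewise higher in all 4 pairs. With the replicate block the limma adjusted p over all genes was 0.0729, in a fit where 0 genes passed and 3703 had an unadjusted p under 0.05. Among varying genes alone it was 0.0141, and 0.0319 with the block, a fit in which 19.5% of varying genes passed. With numbers 1 and 2 against numbers 3 and 4 as a 2-level block, the adjusted p over all genes was 0.0498. Leaving out any array except KO 2 took the adjusted p over all genes above the threshold, to between 0.0648 and 0.0987, with differences from 0.22 to 0.26. Without KO 2 the difference was 0.27 and the adjusted p 0.0486.

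Other measures moved with genotype beside Bscl2. The array carries 3 controls for 18S ribosomal RNA, and each separated the genotypes with KO on top, by 0.44, 0.22 and 0.28. Of the 11 measured adipocyte markers 3 rose and 0 fell, where 4.03% of all genes and 590 of 5173 varying genes were called. They were adiponectin (Adipoq, 0.25 ± 0.05, SE), resistin (Retn, 0.26 ± 0.05) and the activin-type receptor Acvr1c (0.32 ± 0.06). Each is a difference of log2 signals with n = 4 per genotype. Their limma adjusted p values over all genes, 0.0486, 0.0465 and 0.04996, were just under the threshold. With the replicate block none of the 3 passed over all genes, and Adipoq did not among varying genes either (adjusted p = 0.0534). Leptin (Lep) had the opposite sign, -0.38 ± 0.17 (SE, n = 4 each; limma adjusted p = 0.244 over all genes), was lower in KO in 4 of 4 number pairs, and reached an adjusted p of 0.0331 among varying genes with the block added. The part of these in the Bscl2 difference was not tested. In whole tissue, fewer cells of a type and less RNA per cell cannot be told apart.

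The sequence before the Bscl2 start is shown because this gene carries the one call among the members. It covers the 250 bases before the outermost of 3 RefSeq start sites, chr19:8837217-8837466 on the plus strand of GRCm38.p6. Capitals mark letters of the motifs searched on both strands, which here are CCAAT boxes read on the other strand as ATTGG.

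Bscl2: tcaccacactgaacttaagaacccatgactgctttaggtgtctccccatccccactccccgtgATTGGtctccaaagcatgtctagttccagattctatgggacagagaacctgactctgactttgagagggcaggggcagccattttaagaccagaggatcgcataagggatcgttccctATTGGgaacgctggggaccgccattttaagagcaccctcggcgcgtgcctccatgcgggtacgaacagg

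The CCAAT box was found 2 times in that window, at 187 to 183 and at 69 to 65 bases before the start. At least 1 CCAAT box stands in 33.85% of all 32851 such windows in the RefSeq table, so its presence is common. The motifs searched were the CCAAT box (CCAAT), the GC box (GGGCGG), the TATA box (TATAAA), the E-box (CACGTG) and the nuclear receptor motif (AGGTCA), alone and as the direct repeat with 1 base between to which PPAR and RXR bind. Each is a match of letters only.

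The perilipin PLIN4 coats small new droplets in white adipocytes, and PLIN5 is known from oxidative tissues, where it ties droplets to mitochondria. Plin4 had 12.77, 12.73, 12.72 and 12.66 in KO arrays 1 to 4, against 12.90, 12.80, 12.93 and 12.97 in WT arrays 1 to 4. All KO values lay below all WT values, though KO 1 and WT 2 were close, and 33.2% of varying genes likewise had no overlap. The means were 12.72 ± 0.05 in KO and 12.90 ± 0.07 in WT. The difference of -0.18 ± 0.04 (SE, n = 4 each), 88.3% of the WT signal, did not pass over all genes (limma adjusted p = 0.0732, exact permutation p = 0.0286). Among varying genes alone it passed (adjusted p = 0.0395), but not there with the replicate block (0.0829).

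Plin5 had the largest difference of the 8 genes and also one of the widest spreads. Its signal was 9.14, 9.37, 9.80 and 9.78 in KO arrays 1 to 4, against 10.29, 9.76, 9.84 and 10.25 in WT arrays 1 to 4. The genotypes overlapped, since KO 3 and KO 4 stood level with WT 2 and WT 3. The means were 9.52 ± 0.32 in KO and 10.04 ± 0.28 in WT, and the difference of -0.51 ± 0.21 (SE, n = 4 each), 70.1% of the WT signal, did not pass (limma adjusted p = 0.209, exact permutation p = 0.0857). It did not pass among varying genes either, without (0.0738) or with the replicate block (0.102). The 95% interval of the difference ran from -1.01 to -0.01.

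The other Plin5 probe set, 1424937_at, followed the same arrays. It read 8.23, 8.40, 8.77 and 8.69 in KO arrays 1 to 4, against 9.27, 8.66, 8.76 and 9.10 in WT arrays 1 to 4. WT 1 was again the highest array and KO 1 the lowest, and the difference was -0.42 ± 0.18 (SE, n = 4 each; limma adjusted p = 0.249 over all single-gene probe sets). By its suffix the brighter probe set, 1441915_s_at, holds probes shared with other transcripts, a limit that 1424937_at does not have. At the brighter probe set KO minus WT was -1.15, -0.39, -0.04 and -0.47 for numbers 1 to 4, so the widest gap was that of pair 1 and pair 3 had hardly any.

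**Figure D2:**
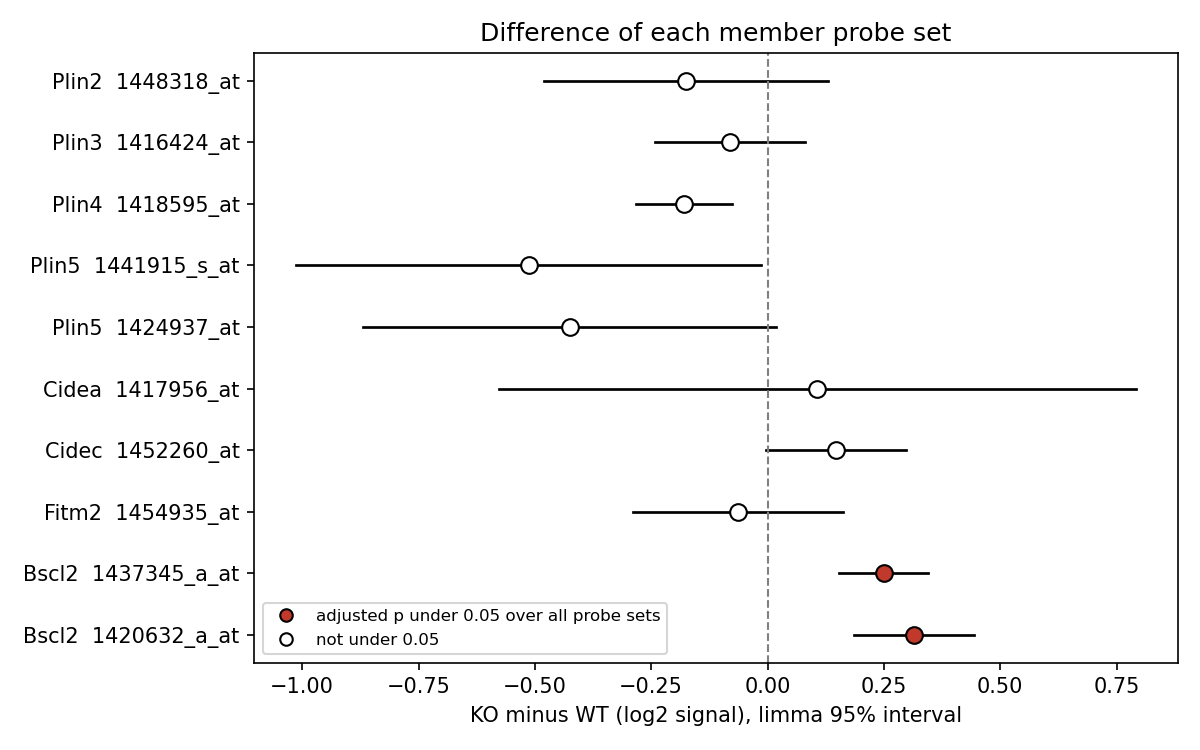
KO minus WT difference in log2 signal of the 10 member probe sets, with limma's 95% interval over 4 KO and 4 WT arrays. Filled points, the 2 probe sets of Bscl2, had an adjusted p under 0.05 over all single-gene probe sets; the intervals of Plin5 and Cidea are the widest.

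Plin4 and Plin5 are direct neighbours on chromosome 17, with 0 annotated genes between them in GRCm38.p6, and Plin3 lies on the same chromosome with 9 genes between it and Plin5. Their 250-base windows are printed for comparison: chr17:56109783-56110032 for Plin4, and chr17:56117549-56117798 for the outermost of 2 start sites of Plin5, both on the minus strand. Capitals mark the motifs named for Bscl2.

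Plin4: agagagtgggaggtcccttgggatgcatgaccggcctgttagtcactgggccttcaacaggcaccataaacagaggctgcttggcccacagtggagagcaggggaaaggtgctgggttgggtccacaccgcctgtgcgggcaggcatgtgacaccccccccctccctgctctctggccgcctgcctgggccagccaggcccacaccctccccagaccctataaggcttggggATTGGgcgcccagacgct

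Plin5: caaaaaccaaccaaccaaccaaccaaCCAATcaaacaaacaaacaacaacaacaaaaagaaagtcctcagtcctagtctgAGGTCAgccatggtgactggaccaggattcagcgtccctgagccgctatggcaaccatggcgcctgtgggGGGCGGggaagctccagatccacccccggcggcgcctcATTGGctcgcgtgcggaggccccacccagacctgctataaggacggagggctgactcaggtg

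The Plin4 window held 1 CCAAT box, at 18 to 14 bases before the start. The Plin5 window held 2 CCAAT boxes, 1 GC box and 1 nuclear receptor motif, AGGTCA, at 170 to 165 bases before the start. Matches of this kind stand in 14.02% of all windows, and GC boxes in 32.74%. The full direct repeat was matched in 11 of 32851 windows, none of them a member's. Plin2 and the second Bscl2 start were the other windows of members with the receptor motif.

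PLIN2 coats droplets in nearly every cell type, and its mRNA is known to follow the lipid load and PPAR activity. Plin2 had 11.91, 12.08, 12.24 and 12.38 in KO arrays 1 to 4, against 12.23, 12.14, 12.47 and 12.47 in WT arrays 1 to 4. Taken over all 8 arrays the genotypes overlapped, with means of 12.15 ± 0.20 in KO and 12.33 ± 0.17 in WT. The difference of -0.17 ± 0.13 (SE, n = 4 each) did not pass (limma adjusted p = 0.474, exact permutation p = 0.257). The 95% interval ran from -0.48 to 0.13.

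Plin2 separated the arrays by replicate number instead. Numbers 1 and 2 of both genotypes lay between 11.91 and 12.23, and numbers 3 and 4 between 12.24 and 12.47, without overlap. Of the varying genes 0.715% were higher in all arrays numbered 3 and 4 than in any numbered 1 or 2, and 3.61% split that way in either direction. This split was examined after the values were seen, so no test is given. The mean of 15 skeletal muscle markers split the same arrays the other way, at 8.77 to 9.48 in numbers 1 and 2 and 6.46 to 7.15 in numbers 3 and 4, while 0 of the 15 passed between genotypes, and their part in the Plin2 values was not tested. Within numbers 1 and 2 both KO arrays were below both WT arrays, and so they were within numbers 3 and 4. The KO minus WT difference was -0.19 in numbers 1 and 2, against -0.16 in numbers 3 and 4. With this 2-level block the limma adjusted p over all genes was 0.127, and with the replicate number as a block it was 0.237. In no fit that was run did Plin2 pass.

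**Figure D3:**
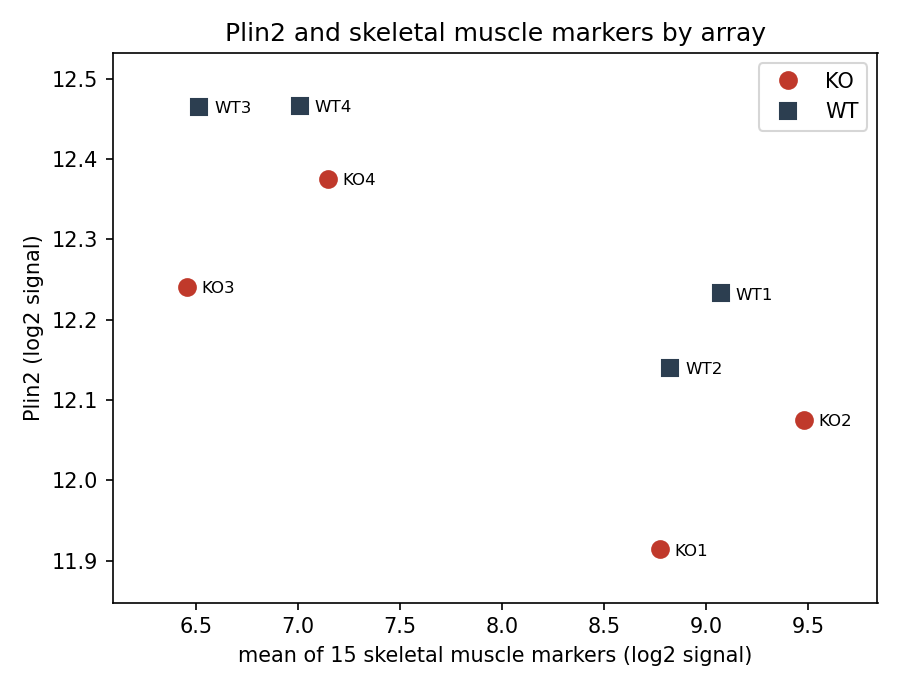
Plin2 log2 signal against the mean log2 signal of 15 skeletal muscle markers in each of the 4 KO and 4 WT arrays, labelled by replicate number. Arrays numbered 1 and 2 sit at the lower right and those numbered 3 and 4 at the upper left, and within each cluster the KO arrays are below the WT arrays.

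PLIN3 is a cytosolic perilipin that binds nascent droplets. Plin3 had 8.73, 8.68, 8.77 and 8.63 in KO arrays 1 to 4, against 8.93, 8.83, 8.65 and 8.72 in WT arrays 1 to 4. The genotypes overlapped in part: WT 1 and WT 2 lay above every KO array, KO 4 lay below every WT array, and WT spread more widely than KO. The difference was -0.08 ± 0.07 (SE, n = 4 each; limma adjusted p = 0.527), with a 95% interval of -0.24 to 0.08. The gap lay in numbers 1 and 2 (-0.18), while numbers 3 and 4 gave 0.01.

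All 4 perilipins thus had a lower mean in KO, as did 2467 of 5173 varying genes, and none of the 4 passed over all genes. Plin2, Plin4 and Plin5 were each lower in KO in 4 of 4 number pairs, as were 25% of varying genes, and Plin3 was in 3 of 4. With 4 pairs an exact paired permutation test cannot go below p = 0.125. Lipid-laden macrophages also carry PLIN2. Of 14 macrophage markers 0 passed, though all 14 had a higher mean in KO, 1 of them near constant. Among varying genes 2706 of 5173 were higher in KO. The mean of the 14 was 9.24, 9.29, 9.34 and 9.38 in KO arrays 1 to 4, against 9.59, 9.20, 8.38 and 8.83 in WT arrays 1 to 4. In this mean WT 1 was the highest array and WT 3 and WT 4 the lowest, so KO was not above WT in every number pair. Averaged over arrays, the genotypes differed by 0.31 in this mean, and its part in the Plin2 values was not tested. Plin1, the main perilipin of the adipocyte, was not analysed here.

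**Figure D4:**
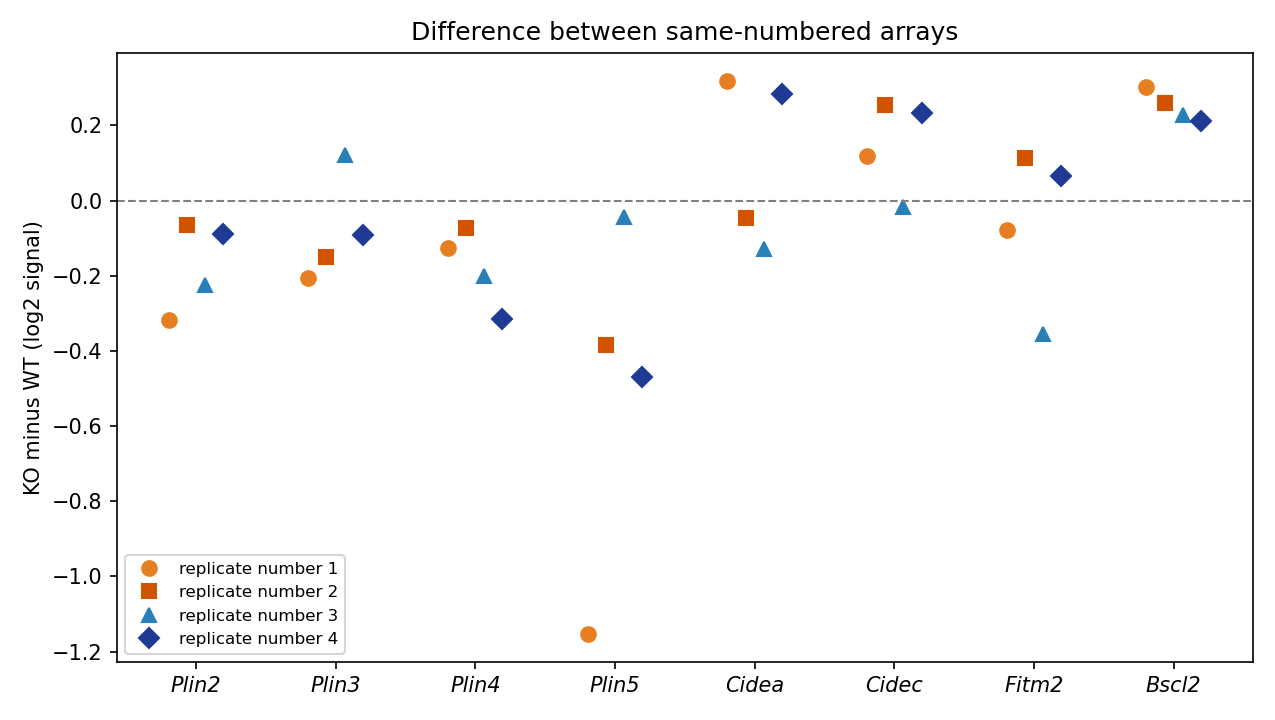
KO minus WT difference in log2 signal between arrays of the same replicate number, for each of the 8 genes. All 4 differences are below 0 for Plin2, Plin4 and Plin5 and above 0 for Bscl2, and they fall on both sides of 0 for Plin3, Cidea, Cidec and Fitm2.

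CIDEC, also called FSP27, drives the fusion of droplets in white adipocytes, while CIDEA does so in brown fat and in some white depots. Cidec had 13.16, 13.11, 13.12 and 13.23 in KO arrays 1 to 4, against 13.04, 12.85, 13.14 and 12.99 in WT arrays 1 to 4. WT 3 reached into the KO range and the other 3 WT arrays lay below it. The means were 13.15 ± 0.05 in KO and 13.01 ± 0.12 in WT, and the difference of 0.15 ± 0.06 (SE, n = 4 each) did not pass (limma adjusted p = 0.229, exact permutation p = 0.0857). Its 95% interval, from -0.0038 to 0.30, only just held 0. Among varying genes the adjusted p was 0.125, or 0.145 with the replicate block.

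Cidea varied more within a genotype than between them. It had 8.43, 7.47, 7.99 and 8.53 in KO arrays 1 to 4, against 8.11, 7.52, 8.12 and 8.25 in WT arrays 1 to 4. Number 2 was the lowest array and number 4 the highest in both genotypes. The means were 8.10 ± 0.48 in KO and 7.997 ± 0.33 in WT, with a difference of 0.11 ± 0.28 (SE, n = 4 each; limma adjusted p = 0.868). The 95% interval of -0.58 to 0.79 does not settle a direction, and the sign turned when KO 1, KO 4 or WT 2 was left out.

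Cidea is widely used as a brown and beige marker. Of 9 listed brown and beige markers 5 were near constant over the 8 arrays, Ucp1, Dio2 and Elovl3 among them, and 0 passed. The mean of all 9 was 6.97 to 7.05 in KO arrays and 6.94 to 7.03 in WT arrays. Among the other 4, Cox8b, a muscle-type subunit of cytochrome oxidase found in brown fat, differed by 0.54 ± 0.18 (SE, n = 4 each; limma adjusted p = 0.147), and passed in the fit of varying genes (0.0449), also once the block was added (0.0301). The potassium channel gene Kcnk3 went the other way, at -0.25 ± 0.09 with the genotypes apart (adjusted p = 0.168); in the fit of varying genes its adjusted p was 0.0650, and 0.0377 once the block was added. Cox7a1 (0.27 ± 0.27) and Ppargc1a (-0.10 ± 0.10) did not pass in these fits. The range of Cidea over the 8 arrays was 1.06.

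FITM2 is a membrane protein of the endoplasmic reticulum needed for droplet formation and budding. Fitm2 had 10.90, 10.92, 10.89 and 11.05 in KO arrays 1 to 4, against 10.98, 10.81, 11.24 and 10.98 in WT arrays 1 to 4. The genotypes overlapped, and WT held both the lowest and the highest array. The difference was -0.06 ± 0.09 (SE, n = 4 each; limma adjusted p = 0.745), with a 95% interval of -0.29 to 0.16, and its sign turned without WT 3. Thus the assembly genes Fitm2 and Bscl2 did not share a direction in these values, a contrast that was not itself tested.

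Over the 8 members 1 rose, 0 fell and 7 did not pass. The differences had a median of -0.07, against 0.00 over all genes and 0.01 over varying genes. Over all genes 4.03% were called, a share that includes the near-constant genes. All 8 members are varying, and in the same fit 590 of the 5173 varying genes were called. With 1 call among 8 members, the count is too small to set the members apart from either background. An absolute difference of 0.18 was the median among varying genes, so those of Plin2 and Plin4 were of ordinary size. That of Plin5 was larger than those of 94.6% of varying genes. The Bscl2 difference was larger than those of 69.1% of varying genes, and below the median of 0.32 among called varying genes.

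Lists of the wider droplet machinery are given beside the 4.03% called over all genes. They also hold near-constant genes, and their counts of calls are too small to tell from that share. Of 22 measured genes for other droplet surface proteins 0 passed. The nearest was the lipid transfer protein Vps13a (0.11 ± 0.02, SE, adjusted p = 0.0530), and Aifm2, a droplet-associated ferroptosis suppressor, had -0.50 ± 0.13 (adjusted p = 0.0889). Aifm2 passed among varying genes alone, without (0.0237) and with the replicate block (0.0330). The lipases Pnpla2 (0.00 ± 0.03) and Lipe (-0.05 ± 0.05) and the lipase inhibitor G0s2 (-0.10 ± 0.31) did not pass in any of these limma fits, and Cideb and Fitm1 were near constant. Hilpda, an inhibitor of Pnpla2 induced in hypoxia, differed by -0.24 ± 0.09 without passing (adjusted p = 0.191).

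Of 16 genes for droplet growth and triglyceride supply 1 rose and 0 fell. Gpat3, which makes lysophosphatidic acid from glycerol-3-phosphate, had 10.96, 10.78, 10.93 and 10.75 in KO arrays 1 to 4, against 10.36, 10.26, 9.82 and 9.88 in WT arrays 1 to 4. All KO arrays were above all WT arrays, with a difference of 0.77 ± 0.14 (SE, n = 4 each; limma adjusted p = 0.0420). With the replicate block over all genes it did not pass, as no gene did, but it passed among varying genes with the block (0.0253). Leaving out any 1 of the 8 arrays also ended the call over all genes. Dgat1, which catalyses the last step to triglyceride, differed by 0.30 ± 0.08 (adjusted p = 0.0930) and the caveolar protein Cav1 by 0.19 ± 0.05 (0.106). Both passed among varying genes alone (0.0299 and 0.0483), but not there with the replicate block (0.0513 and 0.0813). Mogat1 differed by 0.30 ± 0.18 (adjusted p = 0.363) and was higher in KO in 4 of 4 number pairs. Among varying genes Mogat1 did not pass alone (0.176) but passed with the replicate block (0.0398). Agpat2 and Cavin1, which like BSCL2 and CAV1 are lipodystrophy genes in people, differed by 0.06 ± 0.17 and -0.05 ± 0.04 and did not pass.

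Of 13 transcriptional regulators of droplet genes 0 passed. Of the 9 that were varying, 5 were higher in KO and 4 lower. Srebf1 (0.42 ± 0.22, SE, limma adjusted p = 0.320), Cebpa (0.34 ± 0.18, 0.334) and Ppara (0.31 ± 0.18, 0.369) were among the higher. These 3 did not pass among varying genes either, without or with the replicate block. Rxra, the partner of the PPARs, was lower without overlap (-0.30 ± 0.09, SE, adjusted p = 0.106), and passed among varying genes alone, without (0.0345) and with the replicate block (0.0427). Pparg, the adipocyte PPAR that drives many droplet genes, had a mean of 10.94 ± 0.02 in KO and 11.02 ± 0.05 in WT. The KO arrays lay just below the WT arrays, and the difference of -0.08 ± 0.03 (SE, n = 4 each; limma adjusted p = 0.141) did not pass, also not among varying genes (0.181).

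**Figure D5:**
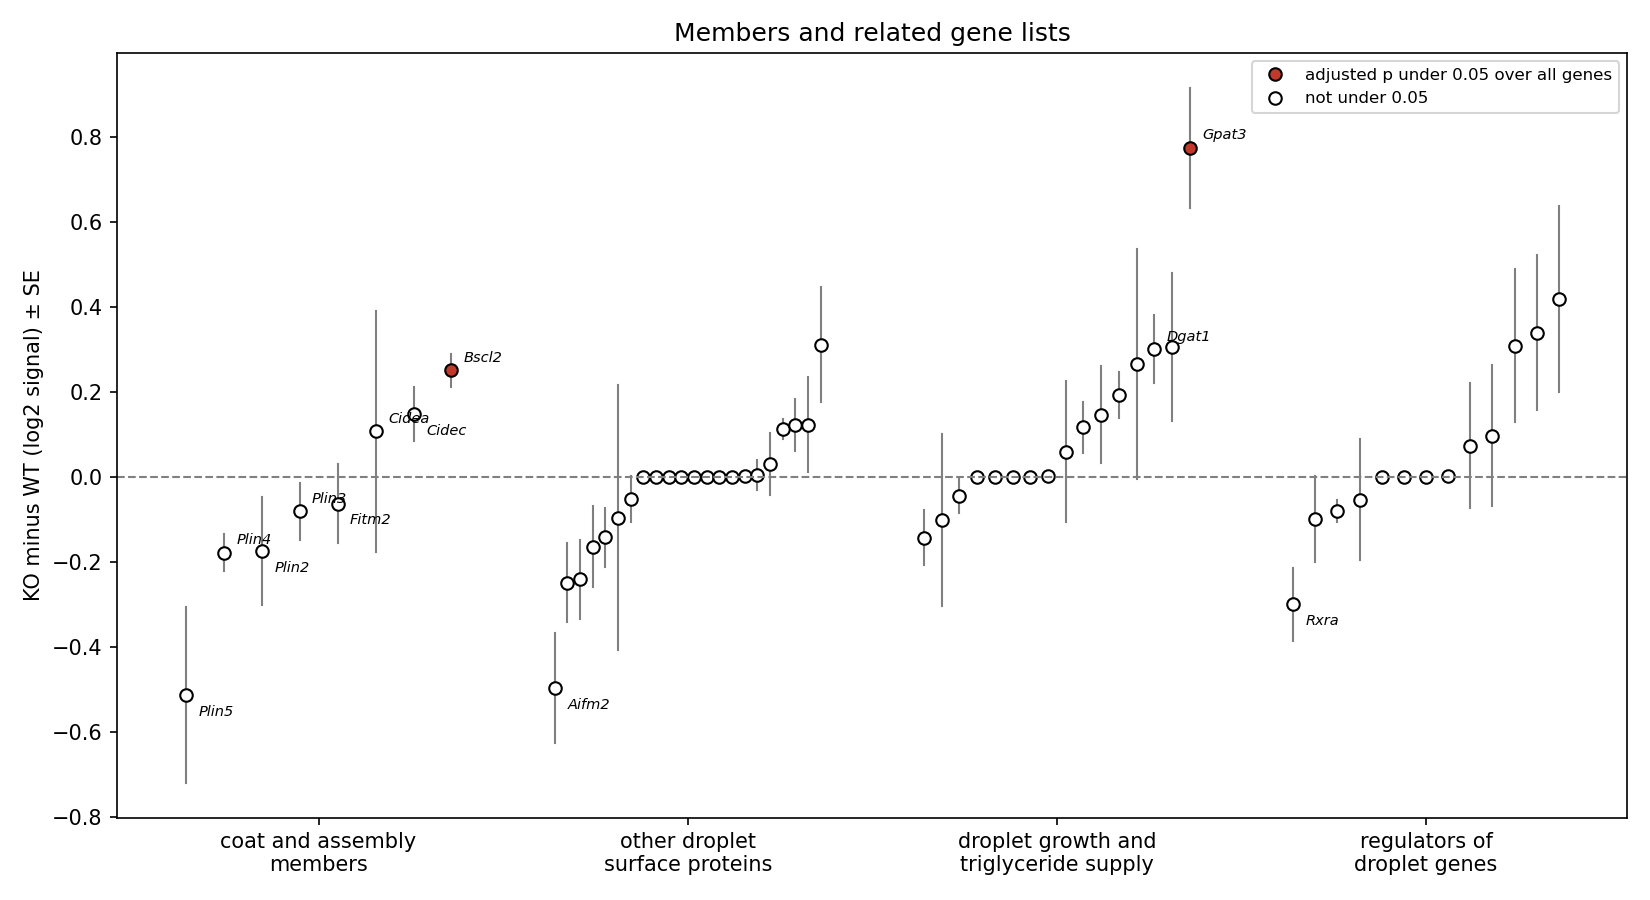
KO minus WT difference in log2 signal with its SE for the 8 members, 22 genes for other droplet surface proteins, 16 genes for droplet growth and triglyceride supply and 13 regulators, ordered by size within each list. Filled points, Bscl2 and Gpat3, passed over all genes, and the points at 0 are mostly near-constant genes.

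The genes most like each member were taken as the 3 with the highest Pearson r of log2 signal over the 8 arrays among 5173 varying genes. The 8 arrays are the same for every pair, and a best match among so many genes is high by selection, so these values are a description only. Bscl2 was most like Tmem106c (0.995), the malate dehydrogenase gene Mdh2 (0.993) and Cdc42bpg (0.992), which each rose in KO too. With the genotype means taken out, r of Bscl2 with Mdh2 was 0.993. The 2 Bscl2 probe sets themselves had r = 0.893 over the 8 arrays, and only 0.264 with the genotype means taken out. Plin4 was most like Zfp110 (0.964), Hdac5 (0.958) and Rpap3 (0.954), and Plin5 most like Uhrf1bp1 (0.972), Irak2 (0.971) and Pmm1 (0.954). Plin2 followed Atg101 (0.973), Whrn (0.953) and Ifrd1 (0.949), and Plin3 followed Tpst2 (0.944), Trim8 (0.922) and Slco2b1 (0.916). Cidec was most like Hibch (0.969), Ipo7 (0.958) and Mier3 (0.952), Cidea most like Ell2 (0.956), Isoc2b (0.927) and Ift81 (0.895), and Fitm2 most like Tfb2m (0.953), Trafd1 (0.952) and Cyp51 (0.950). The lists hold no other member.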

How the data were processed

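Per the labels, 100 ng of total RNA from each fat pad was amplified and labelled for a 3' expression array, 1 per mouse. The authors deposited log2 values for 45101 probe sets. Per the submitters' processing notes they used R 2.14.0; the normalisation is not given in the sources used here, and the log2 scale was read from the values. Probe sets were named through the platform annotation: 34945 name 1 gene, 932 several and 9224 none or are controls. KO was compared with WT by limma 3.58.1 (lmFit and eBayes, two-sided, no block) in R 4.3.3, over 18193 genes, with Benjamini-Hochberg adjustment. For 78.7% of probe sets the SD of the 8 values was below 0.01, and limma's prior degrees of freedom were 0.332. Single values had two-sided exact permutation tests. The members, gene lists and tests were chosen with earlier results of these data known. The genes named are all members, Plin1, up to 4 called genes per list and the 3 most alike genes per member. Those named without a call (Vps13a, Aifm2, Pnpla2, Lipe, G0s2, Hilpda, Cideb, Fitm1, Dgat1, Cav1, Mogat1, Agpat2, Cavin1, Rxra, Pparg, Srebf1, Cebpa, Ppara, Ucp1, Lep, Cox8b, Kcnk3, Cox7a1, Ppargc1a, Dio2 and Elovl3) were chosen after their values were seen. Spart was matched as Spg20 and Emr4 as Adgre4; Plin1, Ldaf1 and Cfd were not matched. Deviations of same-numbered arrays correlated across genes at 0.315, 0.486, 0.189 and 0.244, which meets the rule for pairs (each over 0.1); the labels do not say what a number shares. KO 3 with WT 4 (0.364) and KO 4 with WT 3 (0.266) correlated more than their own numbers did. On simulated KO against WT data over 18193 genes the test made 6 false calls and found 18% of the genes shifted by 0.3 log2, 50% of those shifted by 0.6, 80% by 1 and 96% by 1.5. The shifts were placed in varying genes only, and the simulated noise was independent between arrays. Deviations shared between arrays, as seen here, were not simulated, so the false calls on the real arrays are not known from this. RefSeq start windows of GRCm38.p6 were matched for 7 members by symbol. Precision is limited by the small number of arrays.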

Additional observations from a re-analysis of the deposited data

How the results depend on the processing

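Directions held for Plin2, Plin3, Plin4, Plin5, Cidec and Bscl2 in every fit run. Over all genes 733 passed, 434 higher and 299 lower. With the replicate block 0 of each passed, although 3703 had an unadjusted p under 0.05; the members called fell to 0 and so did the droplet growth list. The block left the Bscl2 difference at 0.25 with an adjusted p of 0.0729. Among varying genes, where fewer genes are tested, 1402 passed (769 higher, 633 lower), with 2 members, Bscl2 and Plin4 (-0.18), and with 1, 3 and 1 genes of the surface, growth and regulator lists. With the block there, 478 were lower and the lists gave 1, 2 and 1. The 2-level block of numbers (1 and 2, 3 and 4) gave 197 lower genes. With dim genes left out 1 surface gene passed. Leaving out each array gave 10 to 253 genes (4 to 141 higher, 6 to 119 lower), with the fewest without KO 3; 0 to 1 members; 0 genes of the growth list; and Bscl2 differences from 0.22 to 0.27. Cidea then ranged from -0.054 to 0.32 and Fitm2 from -0.13 to 0.016. Cidea was reversed without KO 1 (-0.0016), KO 4 (-0.035) and WT 2 (-0.054), and Fitm2 without WT 3 (0.016). The causes were not tested.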
